A study of Mus musculus with 72 samples.

Results

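Resting cells of the mouse melanoma lines 1057 and 1064 were compared by RNA-seq, with 3 mock-treated libraries of each line. These 6 of the 72 libraries of the series were picked out by their labels. The comparison itself was chosen with earlier results of these data known. Each line was grown from a melanoma of a transgenic mouse, so a line stands for 1 tumour, and both were labelled female and positive for Grpr. Both carry Tyr::NRASQ61K/°; Cdkn2a-/-;Tyr::CreA/°;Cdh1dF/dF, in which the tyrosinase promoter drives the mutant NRAS and the Cre recombinase in melanocytes, and Cre deletes the floxed E-cadherin gene Cdh1. Mock treatment was 0.1% DMSO for 4 h in medium with 0.5% serum, after 18 h of starvation at 80% confluency. The other set of libraries used below, 3 of each line, received 1 µM RC, the GRPR antagonist RC-3095, for the same time. Of the 50600 genes in the count table, 13535 autosomal genes passed the filter on low counts and were tested. They include 457 of the 613 autosomal genes in 34 lists covering melanoma state, lineage, matrix and signalling.

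Melanocytes arise from the neural crest. Their identity rests on the transcription factors MITF, SOX10 and PAX3, which drive the enzymes and structural proteins of the melanosome. Melanoma cells move between pigmented states with much MITF output and less differentiated states that carry neural crest genes such as Ngfr or invasive genes such as Axl. E-cadherin joins melanocytes to keratinocytes, and its loss is common as melanomas progress.

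The mock libraries of 1057 held 35067668 to 36165848 counted reads and those of 1064 held 20525837 to 32668855. The lines differed in how alike their replicates were. The median standard deviation of log2(CPM + 1) over replicates was 0.0603 in 1057 and 0.192 in 1064, where CPM is TMM-normalized counts scaled to each library's total. No pair of replicates agreed within sampling noise, so all 6 libraries were used. The labels do not say that replicates came from separate cultures, so p-values measure only the spread between these libraries. The libraries of 1057 form a block of their own in the authors' tables, and line and library series cannot be told apart. Nor can fewer cells of a type and less RNA per cell be told apart in such bulk samples.

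The genes of the genotype were read first. Cdh1 had 1 count over the 3 mock libraries of 1057 and 2 over those of 1064, at most 1 count in any library. Nras, the gene of the driver, lay at 110 to 116 CPM in 1057 and at 90.7 to 110 CPM in 1064 (log2 fold change 0.16 for 1057 over 1064, SE 0.089, adjusted p = 0.173). These reads cannot be divided between the mouse gene and the transgene here. Cdkn2a, a cell-cycle inhibitor gene, still gave 3.59 to 4.52 CPM in 1057 and 5.69 to 7.32 CPM in 1064, and which exons gave these reads was not analysed here. Grpr, on the X chromosome and used only as a check of the labels, was present in both lines, at 249 to 254 CPM in 1057 and 712 to 1170 CPM in 1064. The 4 Y-linked genes looked at did not exceed 0.0558 CPM in any of the 6 libraries.

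All 7 melanocyte markers were tested in these cells, and their summed level was 8050 to 8620 CPM in 1057 and 12000 to 24400 CPM in 1064. Markers of other cell types were low in both lines. The 7 keratinocyte markers summed to at most 1.36 CPM in any library, with no count of Krt1 or Krt5. The 6 endothelial markers summed to 4.63 to 5.53 CPM in 1057 and 7.13 to 12.1 CPM in 1064. Of the 8 immune markers, which summed to at most 27.1 CPM, Lyz2 gave nearly all counts, Ptprc had 5 counts in 1057 and 0 in 1064, and Adgre1 had none.

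A gene was called when edgeR's quasi-likelihood test gave a Benjamini-Hochberg adjusted p under 0.05 and the absolute log2 fold change exceeded 1. All fold changes are 1057 over 1064. Of the 13535 autosomal genes tested, 1625 (12.0%) were called higher in 1057 and 1864 (13.8%) lower, and the median log2 fold change was 0.01. The same test gave an unadjusted p under 0.05 for 8163 of the 13535. These shares are the background against which each list is read. The lists were chosen with earlier results of these data known, so a share beyond the background is a description and not a test. In the RC libraries 12.6% of 13419 genes were called higher in 1057 and 14.6% lower. Of the 3489 genes called in mock, 3098 (88.8%, and 85.1% of the 3640 called with RC) were called the same way and 0 the opposite way. The mock and RC sets share no library. They are not independent for 1064, whose same-numbered mock and RC libraries deviated from their group means together (r = 0.718 to 0.895 across genes, which are not independent replicates), while in 1057 r was 0.0343 to 0.154.

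**Figure D1:**
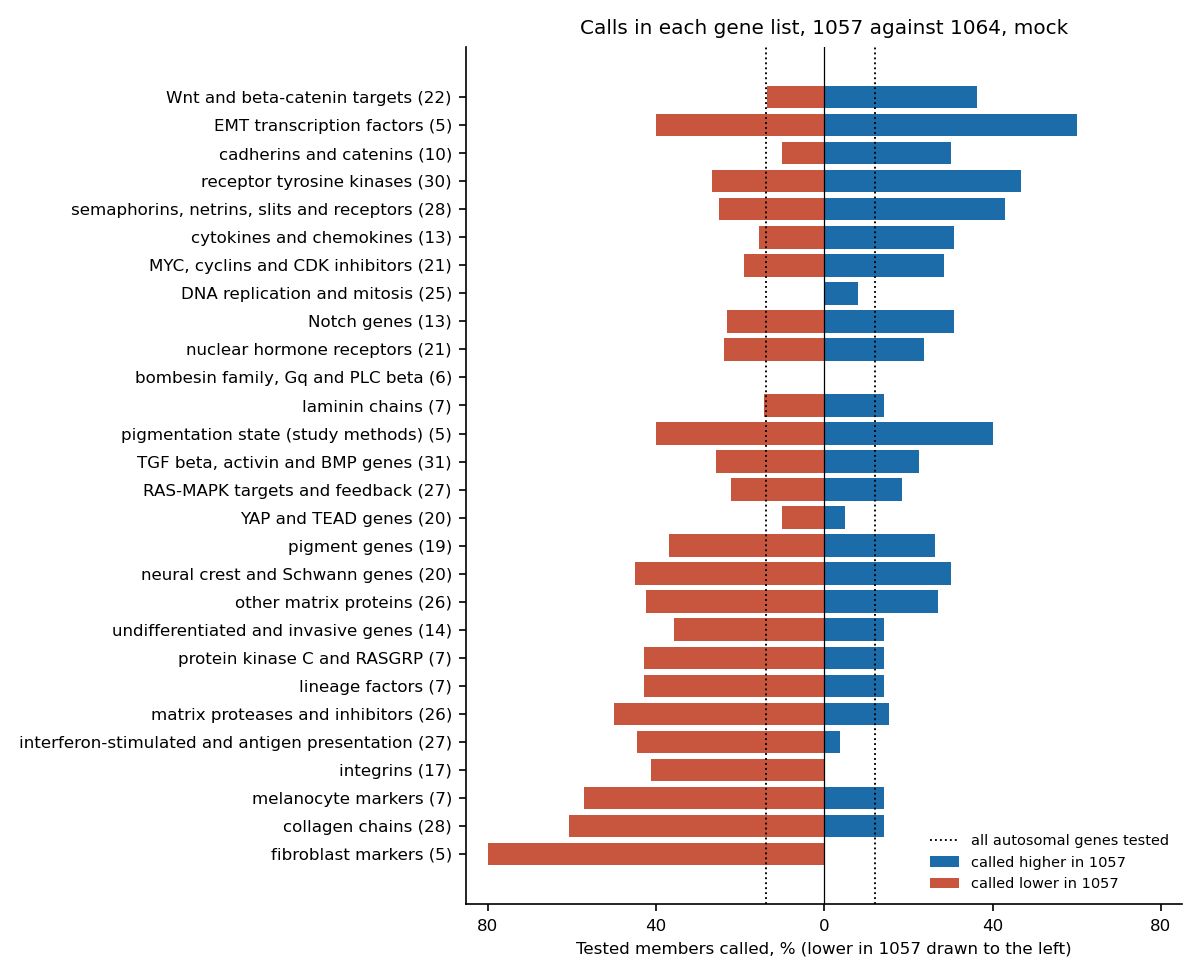
Percentage of the tested members of each gene list called higher (blue, right) or lower (red, left) in 1057 than in 1064, mock libraries, for the 28 lists with at least 5 tested members (number in brackets). Dotted lines mark the shares over all autosomal genes tested, 12.0% higher and 13.8% lower. Lists are ordered by the share higher minus the share lower. Collagen chains, with 17 of 28 lower and 4 higher, reach furthest to the left among the lists of more than 10 tested members.

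The promoters of the pigment genes are shown because genes that hold the same MITF-type E-box moved in opposite directions between the lines. The E-box core CATGTG was searched on both strands in the windows from 250 bases before to 50 after each RefSeq start (GRCm38.p6). It was present in 14.2% of 32851 promoters of all genes, and in at least 1 window of 8 of the 22 lineage and pigment genes with an entry. Counted by promoter, 9 of the 33 of these genes held it. Its palindromic relative CACGTG was in 7.15% of all promoters and in 5 of the 33, 1 each of Lef1, Mlph, Rab27a, Slc24a4 and Trpm1. The 250 bases before the start are given for Tyrp1 (chr4:80833963-80834212, plus strand), Dct (chr14:118052247-118052496, minus strand), Tyr (chr7:87493513-87493762, minus strand) and Trpm1 (chr7:64153585-64153834, plus strand, the first of its start sites), each 5′ to 3′ along the gene with the E-box in capitals:
Tyrp1: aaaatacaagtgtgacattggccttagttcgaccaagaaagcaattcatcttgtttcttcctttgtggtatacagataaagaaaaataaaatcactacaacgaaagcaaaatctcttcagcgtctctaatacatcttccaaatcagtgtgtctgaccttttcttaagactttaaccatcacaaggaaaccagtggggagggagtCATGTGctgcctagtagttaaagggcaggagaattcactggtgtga
Dct: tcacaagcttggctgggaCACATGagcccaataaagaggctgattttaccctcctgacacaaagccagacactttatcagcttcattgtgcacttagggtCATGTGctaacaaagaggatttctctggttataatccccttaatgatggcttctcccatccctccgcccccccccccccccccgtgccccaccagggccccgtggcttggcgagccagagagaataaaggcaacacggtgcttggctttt
Tyr: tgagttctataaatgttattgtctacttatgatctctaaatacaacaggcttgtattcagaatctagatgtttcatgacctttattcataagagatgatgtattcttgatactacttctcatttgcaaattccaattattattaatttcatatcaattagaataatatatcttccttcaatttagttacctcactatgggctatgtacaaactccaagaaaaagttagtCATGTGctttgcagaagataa
Trpm1: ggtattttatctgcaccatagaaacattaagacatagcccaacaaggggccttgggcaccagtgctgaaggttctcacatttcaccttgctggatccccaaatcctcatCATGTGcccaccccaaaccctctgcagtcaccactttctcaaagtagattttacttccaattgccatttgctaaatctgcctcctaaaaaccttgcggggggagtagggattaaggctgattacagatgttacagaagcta

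The E-box of Tyrp1 starts 46 bases before the RefSeq start, that of Tyr 21 and that of Trpm1 141, and Dct holds 2, at 232 and 150 bases before it. Pmel and Mlana are named only. In the values below Tyrp1 and Dct were lower in 1057, Trpm1 was higher and Tyr was not called. A match of these letters is a description of the window and not a measured binding site.

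Pigment genes diverged between the lines in both directions. Of 19 tested, 5 were higher and 7 lower in 1057, with a median log2 fold change of -0.38. Tyrp1 (ENSMUSG00000005994, chr4:80834123-80851719), which encodes a late enzyme of eumelanin synthesis, gave 85.4, 77.9 and 81.2 CPM in the 3 libraries of 1057 and 7750, 1320 and 3480 CPM in those of 1064. All 3 libraries of 1064 were far above 1057, although they differed among themselves several-fold. The log2 fold change was -5.68 (SE 0.68, adjusted p = 0.000598), a 51.3-fold difference. Pmel (ENSMUSG00000025359, chr10:128704195-128720238), the protein of the melanosome fibrils, gave 190, 183 and 170 CPM in 1057 and 5150, 2550 and 3270 CPM in 1064. Its log2 fold change was -4.34 (SE 0.29, adjusted p = 6.32e-05).

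Other melanosome genes were lower in 1057 by less. Myo5a, the motor that carries melanosomes along actin, had a log2 fold change of -1.54 (SE 0.13, adjusted p = 0.00016), and Tspan10 of -2.02. Dct, the dopachrome tautomerase, gave 1810 to 1970 CPM in 1057 and 3050 to 5660 CPM in 1064 (log2 fold change -1.11), and Gpnmb, a PMEL relative, had a log2 fold change of -1.12. Mlph, which links Myo5a to the melanosome, had -1.30. Replicate 1 of 1064 was the highest of the 6 libraries for these 3 genes. Without it their values became -0.79 for Dct, -0.99 for Gpnmb and -0.97 for Mlph, all under the fold threshold, and the number of pigment genes called lower went from 7 to 4.

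In the opposite direction, receptors of the melanocyte surface were higher in 1057. Ednrb, the endothelin receptor B, gave 226, 220 and 221 CPM in 1057 and 12.7, 31.5 and 6.09 CPM in 1064 (log2 fold change 3.74, SE 0.56, adjusted p = 0.00154). Kit, the receptor for stem cell factor, gave 607 to 613 CPM against 66.8 to 134 CPM (log2 fold change 2.45). Mc1r, the melanocortin receptor, gave 593 to 635 CPM against 213 to 353 CPM. Its log2 fold change of 1.11 became 0.95 without replicate 3 of 1064, under the fold threshold. The channel gene Trpm1 (log2 fold change 1.32, SE 0.15) and the melanosome antigen gene Mlana (1.17, SE 0.25) were also higher. The groups did not overlap for any of the 5 genes, but these were called on the same libraries, so this adds no support.

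The genes for tyrosinase and the melanosome transporters were not called. Tyr, the first enzyme of melanin synthesis, lay at 2540 to 2700 CPM in 1057 and 1740 to 2520 CPM in 1064 (log2 fold change 0.31, SE 0.16, adjusted p = 0.142). Slc45a2 had a log2 fold change of 0.19 (SE 0.10), and the libraries of the lines overlapped for Slc24a5, Oca2 and Rab38, a Rab protein of melanosome transport. Per transcript length, on the authors' TPM scale, the order of pigment genes differed between the lines. Mlana was first in 1057 with a mean of 12900 TPM, followed by Dct with 2710 and Gpnmb with 1490, while Pmel stood at 258 and Tyrp1 at 94.3. In 1064 the means were 6080 for Dct, 5940 for Mlana, 5410 for Pmel and 5060 for Tyrp1, whose libraries differed several-fold. Of the 12 called pigment genes, all were called the same way in the RC libraries, beside 88.8% of all genes called in mock.

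**Figure D2:**
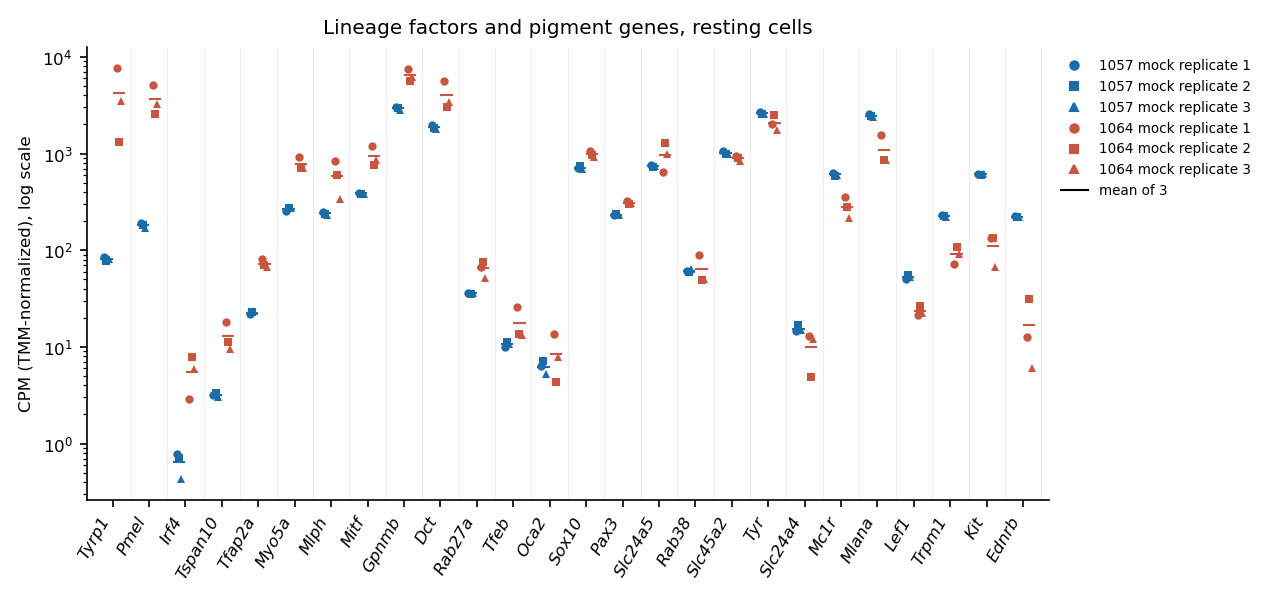
TMM-normalized CPM on a log axis of the 26 tested lineage factors and pigment genes in each mock library of 1057 (blue) and 1064 (red), ordered by fold change, with marker shapes for the replicates and a bar for the mean of 3. Tyrp1, Pmel and Irf4 stand at the left, with 1064 above 1057, and Trpm1, Kit and Ednrb at the right, with 1057 above 1064. The blue points nearly coincide while the red points spread.

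Among the lineage factors Mitf (ENSMUSG00000035158, chr6:97807052-98021349) gave 395, 386 and 379 CPM in 1057 and 1200, 765 and 860 CPM in 1064, a log2 fold change of -1.29 (SE 0.18, adjusted p = 0.00107). Tfap2a, a neural crest and melanocyte factor, was also lower (-1.68, SE 0.096), as was Irf4, a regulator of Tyr (-3.10, SE 0.43), from 2.92 to 7.81 CPM in 1064 to under 1 CPM in 1057. Lef1, the partner of beta-catenin, was higher in 1057 (1.19, SE 0.11), but its adjusted p was 0.149 in a fit of all 72 libraries. Sox10 and Pax3 passed the adjusted p but not the fold threshold, with log2 fold changes of -0.46 (SE 0.10) and -0.42 (SE 0.076). Of 7 lineage factors tested, 1 was higher and 3 lower, with a median of -0.72.

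The study's methods define 4 melanoma states by gene sets. The pigmentation set (Mitf, Mlana, Trpm1, Dct and Tyr) had 2 genes higher and 2 lower of 5. In the invasive set 4 of 6 genes were tested, with a median log2 fold change of -2.11, and Axl and Tnc were lower and 0 genes higher. The number lower was 3 in DESeq2 and in the fits of 24 and 72 libraries, and 4 with no filter. Tnc lost its call without replicate 2 or 3 of 1057 (adjusted p = 0.053 and 0.0524). The summed level of the 6 invasive genes went the other way in mock, at 554 to 595 CPM in 1057 and 312 to 471 CPM in 1064. With RC the sums overlapped (580 to 604 and 354 to 606 CPM). The set therefore has no single direction. In the neural crest-like set, read for its 5 autosomal genes, Ngfr was lower, and Aqp1, Slc22a17 and Tmem176b were not called. The number higher was 0, but 1 by adjusted p alone, with no filter, in the fit of 72 libraries and with RC. The summed level of the set overlapped (392 to 425 CPM in 1057 and 357 to 553 CPM in 1064). In the starved-like set Ip6k3 was lower at under 0.2 CPM in 1057 and 1.29 to 2.0 CPM in 1064, and Pax3 and Trim67 were not called.

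Among neural crest and Schwann genes 6 of 20 tested were higher in 1057 and 9 lower, with a median log2 fold change of -1.08. Ngfr (ENSMUSG00000000120, chr11:95568818-95587735), the nerve growth factor receptor that marks neural crest stem cells, gave 0.167, 0.513 and 0.369 CPM in 1057 and 59.3, 78.2 and 26.0 CPM in 1064. It was close to the detection limit in 1057 and well expressed in every library of 1064 (log2 fold change -7.27, SE 0.58, adjusted p = 0.000116). Foxd3, a factor of early neural crest, gave 2.15 to 3.79 CPM against 32.0 to 42.0 CPM (log2 fold change -3.68, SE 0.24). Mef2c (-2.48), Ets1 (-1.40) and Egr2 (-2.75), transcription factors of crest-derived cells and Schwann cells, were lower too.

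Another set of crest-related factors was present in 1057 and nearly absent from 1064. Tfap2b (ENSMUSG00000025927, chr1:19208914-19238576), a paralogue of Tfap2a, gave 212, 244 and 234 CPM in 1057 and no count in any mock library of 1064. The level in 1057 was at least 6030-fold higher, taking 3 counts over the 3 libraries as the limit. Pou3f2 (Brn2), a POU factor found in less pigmented melanoma, gave 13.9, 14.3 and 14.3 CPM in 1057 and 1 count in 1064, a ratio of 1110 with a counting interval of 199 to 43900. Nes, the intermediate filament nestin, was higher by a log2 fold change of 1.33 (SE 0.19), while Pou3f1, called at a log2 fold change of 1.00, lost the call without any 1 library except replicate 1 of 1064. Cdh19 and Gfra1 were called lower (-1.07 and -1.25), and without replicate 2 of 1064 their log2 fold changes were -0.87 and -0.76. Cdh19 also lost its call without replicate 1 of either line, and Gfra1 without replicate 1 or 2 of 1057.

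The transcription factors of epithelial-to-mesenchymal transition moved in both directions, 3 higher and 2 lower of the 5 tested. Zeb1 gave 45.6, 42.4 and 48.7 CPM in 1057 and 3.34, 4.69 and 4.27 CPM in 1064 (log2 fold change 3.48, SE 0.15, adjusted p = 1.28e-05). Zeb2 went the opposite way, with 157 to 165 CPM in 1057 and 524 to 560 CPM in 1064 (-1.75, SE 0.082). Both paralogues repress Cdh1 in epithelial cells. On the TPM scale Zeb1 had a mean of 14.8 in 1057 and 1.35 in 1064, and Zeb2 of 26.3 and 90.6. Snai2 was lower in 1057 (2.07 to 2.22 CPM against 11.0 to 15.3 CPM, log2 fold change -2.56, SE 0.18) and Snai1 was higher (1.20 to 1.74 against 0.126 to 0.265 CPM, 2.76, SE 0.34). Twist1 gave 4.05 to 4.68 CPM in 1057 and 3 counts in all in 1064, a ratio of 114 (counting interval 38.6 to 553). The 5 factors were called the same way with RC, beside 88.8% of all genes called in mock, and under each alternative run.

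Undifferentiated and invasive genes were lower in 1057 where they were called, with the exceptions of Zeb1 and Tgfbi. Of 14 tested, 2 were higher and 5 lower, with a median log2 fold change of -1.65. Axl (ENSMUSG00000002602, chr7:25757273-25788705), a receptor kinase of drug-tolerant melanoma cells, gave 0.558, 0.342 and 0.511 CPM in 1057 and 46.2, 17.2 and 50.3 CPM in 1064 (log2 fold change -6.32, SE 0.51, adjusted p = 0.000126). Vim, the vimentin gene, was abundant in both lines and lower in 1057 (601 to 642 against 1470 to 2440 CPM, -1.63, SE 0.19). Aldh1a3 and Cav1 were also lower, while Tgfbi was higher (6.36 to 7.49 against 0.0942 to 0.152 CPM). Nt5e, Plaur and Fosl1 were not called. Their values in 1064 differed several-fold between replicates and overlapped with 1057, and without replicate 2 of 1064 the number called lower went from 5 to 10.

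Of 10 cadherin and catenin genes tested, 3 were higher in 1057 and 1, Cdh19, was lower. Cdh4 (R-cadherin) gave 10.4, 10.4 and 10.2 CPM in 1057 and no count in 1064, at least 271-fold higher. Cdh6 gave 83.2 to 89.9 CPM against 5.61 to 15.6 CPM (log2 fold change 3.08, SE 0.35) and Cdh11 8.42 to 8.78 CPM against 0.645 to 0.879 CPM (3.47, SE 0.18). N-cadherin, Cdh2, differed little (110 to 115 against 141 to 164 CPM, -0.41, SE 0.086), and it was not called, nor were the catenin genes Ctnnb1, Ctnna1 and Jup. Cdh3, a cadherin of the epidermis, and Esrp1, an epithelial splicing factor, had no count in either line.

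**Figure D3:**
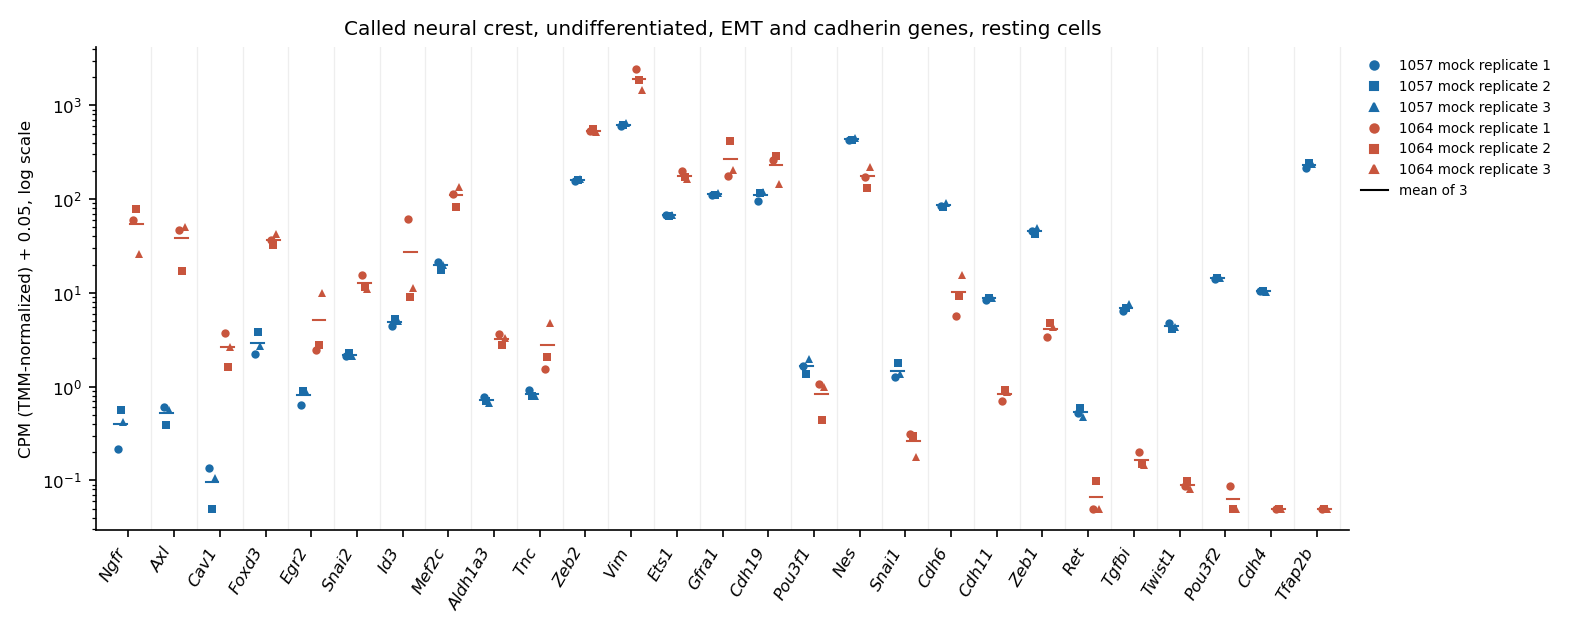
CPM plus 0.05 on a log axis for the neural crest, undifferentiated, EMT and cadherin genes called in mock, in each mock library of 1057 (blue) and 1064 (red), ordered by fold change. The left end is led by Ngfr and Axl, high in 1064. The right end is led by Tfap2b, Cdh4 and Pou3f2, for which libraries of 1064 at 0.05 had no count.

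Collagen chains were more often called lower than higher in 1057. Of 28 tested, 17 were lower in 1057 and 4 higher, with a median log2 fold change of -1.75 against 0.01 over all genes, and 8 were lower on the log2(TPM + 1) scale. Col1a1, Col1a2, Col3a1, Col6a1 and Col6a2 had at most 4 counts over the 3 libraries of 1057. Col1a1 gave 0.0279 to 0.0567 CPM in 1057 and 16.6, 5.37 and 6.69 CPM in 1064 (log2 fold change -7.84, SE 0.71, adjusted p = 0.000192). Col3a1 had no count in 1057 and 1.78 to 2.78 CPM in 1064, at least 78.7-fold lower in 1057. Col6a1 gave 1 count in 1057 and 2.84 to 3.39 CPM in 1064. Among those lower at higher CPM were Col16a1, which lies along fibrils and basement membranes (6.55 to 6.70 against 141 to 247 CPM, -4.84, SE 0.23), and Col5a3 (15.6 to 18.2 against 76.1 to 136 CPM, -2.55, SE 0.23).

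Some collagens showed the opposite. Col9a1, a chain of cartilage fibrils, gave 51.3, 52.2 and 51.8 CPM in 1057 and 0.152, 0.342 and 0.188 CPM in 1064 (log2 fold change 7.87, SE 0.21, adjusted p = 2.92e-06). Col11a1 (31.7 to 32.5 against 4.15 to 15.2 CPM) and Col8a1 (10.9 to 12.3 against 1.46 to 2.67 CPM) were higher too, while Col9a2 was lower (0.257 to 0.369 against 0.754 to 4.25 CPM). The 8 fibroblast markers, of which Col1a1, Col1a2 and Col3a1 are also collagen chains, summed to 3.63 to 4.45 CPM in 1057 and 17 to 36.3 CPM in 1064, with 4 of 5 tested lower and Pdgfra not called. The fibroblast proteoglycan genes Dcn and Lum were at 0 counts in 1057 and at 3 and 0 counts in 1064. The part of other cells in these values was not tested.

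Of 26 other matrix proteins tested, 7 were higher and 11 lower. The number called lower was 17 with no filter and 19 in the fit of all 72 libraries. Fbln2 (ENSMUSG00000064080, chr6:91212455-91272540), an elastic-fibre and basement membrane protein, gave 0.0836, 0.057 and 0 CPM in 1057 and 76.9, 175 and 170 CPM in 1064. Its relative Fbln1 went the opposite way, with 216 to 228 CPM in 1057 and 0.927 to 5.99 CPM in 1064 (log2 fold change 5.87, SE 0.54). The nidogens, which bridge laminin and collagen IV, also changed places. Nid1 gave 2.65 to 2.96 CPM in 1057 and 75.5 to 263 CPM in 1064 (-6.12, SE 0.53), and Nid2 gave 55.8 to 61.4 CPM against 11.1 to 17.3 CPM (2.15, SE 0.19). Perlecan (Hspg2) and osteopontin (Spp1) were lower, and the brain proteoglycan gene Bcan gave 8.67 to 10.1 CPM in 1057 and 1 count in 1064. Sparc, a collagen-binding protein, was not called (4880 to 5200 against 3610 to 3780 CPM).

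Of 17 integrins, receptors for matrix, that were tested, 7 were lower in 1057 and 0 higher, with a median of -0.83. In edgeR 12 had an unadjusted p under 0.05, of them 1 higher, beside 8163 of all 13535 genes tested. DESeq2 also called 7 lower and 0 higher. Itgb5, a subunit of the vitronectin receptor, gave 19.6, 18.8 and 19.6 CPM in 1057 and 131, 150 and 138 CPM in 1064 (log2 fold change -2.85, SE 0.083, adjusted p = 3.43e-06). Itga4, a fibronectin and VCAM1 receptor subunit, was lower at a high level (717 to 792 against 1880 to 2660 CPM, -1.61), and the laminin receptor subunits Itga3 (-3.77) and Itga6 (-1.88) were lower as well. Itgb1, the shared beta subunit, was not called (998 to 1050 against 897 to 1330 CPM). Of 7 laminin chains, Lama1 was higher (9.28 to 10.0 against 0.785 to 1.10 CPM) and Lama3 lower, while Lamb1 and Lamc1 were not called. For 7 chains, 1 call in each direction lies near the background of 12.0% higher and 13.8% lower.

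Matrix proteases and their inhibitors were lower in 1057 for 13 of 26 tested genes and higher for 4, and 7 were lower on the log2(TPM + 1) scale. Mmp2, gelatinase A, gave 60.1, 60.7 and 62.9 CPM in 1057 and 555, 1160 and 961 CPM in 1064 (log2 fold change -3.87, SE 0.28, adjusted p = 8.33e-05). Its activator Mmp14 was higher in 1057 (453 to 468 against 174 to 204 CPM, 1.33, SE 0.096), and its inhibitor Timp2 was lower (30.8 to 32.9 against 121 to 260 CPM, -2.56, SE 0.27). The urokinase gene Plau was high in 1057 and near the floor in 1064 (37.1 to 41.9 against 0 to 0.314 CPM), and Serpine2, an inhibitor of urokinase and thrombin, was 43.5-fold lower in 1057 (9.48 to 10.1 against 329 to 490 CPM).

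Different receptor tyrosine kinases were high in each line. Of 30 tested, 14 were higher in 1057 and 8 lower. Met, the hepatocyte growth factor receptor, was lower, with 158, 152 and 152 CPM in 1057 and 818, 938 and 729 CPM in 1064 (log2 fold change -2.43, SE 0.12, adjusted p = 1.92e-05). Mertk (-1.17) and Erbb2 (-1.36) were lower and fell under the fold threshold without replicate 2 and replicate 1 of 1064 in turn (-0.97 and -0.94). Pdgfrb and Epha4 had no count in 1057. Epha2, an ephrin receptor, was higher in 1057, with 122, 126 and 121 CPM against 6.67, 2.20 and 5.28 CPM (4.68, SE 0.36).

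Fgfr1 (27.0 to 29.5 against 2.0 to 2.67 CPM) and Insr, the insulin receptor (370 to 384 against 112 to 175 CPM), were also higher in 1057. The Wnt5a receptors Ror1 and Ror2 gave 14.6 to 16.6 and 10.4 to 12.7 CPM in 1057 and at most 0.114 CPM in 1064. Ephb2 gave 11.4 to 12.3 CPM in 1057 and 1 count in 1064, and Ephb1 gave none in 1064. Igf1r, at 160 to 249 CPM, did not differ beyond the spread of 1064 (log2 fold change -0.03, SE 0.17).

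Targets and feedback genes of the RAS-MAPK pathway, which mutant NRAS is known to activate, were called in both directions. Of 27 tested, 5 were higher and 6 lower, and the median was -0.21. Over all genes tested 12.0% were higher and 13.8% lower. Spry4, a feedback inhibitor, was the most changed of those higher, at 1220, 1220 and 1200 CPM in 1057 against 248, 331 and 332 CPM in 1064 (log2 fold change 2.0, SE 0.14, adjusted p = 7.44e-05). Etv4, Dusp5 and Myc were higher by log2 fold changes of 1.09 to 1.22. The MAPK phosphatase genes Dusp4 and Dusp6 and the factor Etv5 were not called. Jun (-1.83, SE 0.11), Dusp10 (-2.01, SE 0.11), Dusp2 (-3.30) and Ccnd1 (-1.19, SE 0.16) were lower, and Ccnd1 was not called with RC.

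Of the 6 tested genes for bombesin-family peptides, Gq proteins and phospholipase C beta, edgeR and DESeq2 called 0, and 2 had an unadjusted p under 0.05. Leaving out replicate 1 of 1064 gave 1 call higher. Gnaq, which couples the receptor to phospholipase C, lay at 183 to 193 CPM in 1057 and 134 to 175 CPM in 1064 (log2 fold change 0.35, SE 0.12), and Gna11 at 158 to 175 and 140 to 157 CPM (0.18, SE 0.085). Plcb4, a phospholipase C beta, lay at 57.4 to 68.2 and 84.3 to 136 CPM (-0.74, SE 0.18). These differences passed the adjusted p for Gnaq and Plcb4 but not the fold threshold. The peptide gene Grp had 2 counts over the libraries of 1057 and 0 over those of 1064, and the related receptor gene Nmbr had 0 and 1. Nmb, the neuromedin B gene, was under 1 CPM in all libraries. Of 7 protein kinase C and RASGRP genes tested, 1 was higher and 3 lower. Prkcq was higher (12.0 to 12.8 against 0.408 to 2.01 CPM) and Prkcz lower (1.05 to 1.11 against 8.61 to 10.1 CPM). Prkce (-1.12) and Rasgrp3 (-1.26) were lower and fell under the fold threshold without replicate 1 and replicate 2 of 1064 in turn (-0.83 and -0.81), and Prkca was not called (22.3 to 23.1 against 17.3 to 25.4 CPM).

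Genes of the Wnt pathway were more often higher in 1057, with 8 of 22 tested higher and 3 lower and a median of 0.55. Apcdd1, a membrane-bound Wnt inhibitor that is itself a target, gave 77.5, 72.1 and 69.0 CPM in 1057 and 0.0758, 0.195 and 0.157 CPM in 1064 (log2 fold change 8.98, SE 0.20, adjusted p = 1.71e-06). Wif1, Wnt inhibitory factor, gave 15.9 to 17.6 CPM and no count in 1064, at least 434-fold higher, and the Wnt deacylase Notum gave 28.6 to 30.6 against 2.28 to 2.61 CPM (3.59, SE 0.12). Nkd1 was higher (2.34) while its paralogue Nkd2 was lower (-1.55). Axin2, the general feedback target, was not called (103 to 111 against 71.8 to 139 CPM), and Tcf7l1, a repressor, was lower (-2.41, SE 0.33).

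TGF-beta and BMP genes moved in both directions. Of 31 tested, 7 were higher and 8 lower. Among ligands, Bmp4 and Bmp6 had no count in 1064 and 1.08 to 1.51 and 3.93 to 5.76 CPM in 1057, Bmp2 and Bmp5 had 1 count each, and Gdf15, a stress-induced ligand, gave 8.45 to 11.6 CPM against 0.251 to 0.293 CPM. Bmp7 was lower (-1.17), with a log2 fold change of -0.92 without replicate 2 of 1064. Among receptors Acvrl1 was lower (27.7 to 29.0 against 115 to 131 CPM, -2.11, SE 0.08). The BMP target Id1 was lower (1.03 to 2.04 against 8.54 to 19.7 CPM, -3.00, SE 0.40). Id3 was called lower too, but 1064 ranged from 9.03 to 60.8 CPM and the adjusted p was 0.0759 to 0.0866 without any 1 library of 1057, and it was not called with RC.

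Of the 20 YAP and TEAD genes tested, 1 was higher and 2 lower, shares under the background. The paralogous YAP-binding scaffolds differed in direction: Amotl1 gave 1530 to 1550 CPM in 1057 and 524 to 679 CPM in 1064 (log2 fold change 1.36, SE 0.13), and Amotl2 gave 7.56 to 7.73 and 29.8 to 65.0 CPM (-2.45, SE 0.33).

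Notch genes (4 of 13 higher, 3 lower) held ligands called higher, Dll1, Dll4 and Jag1, and receptors called lower, Notch1 and Notch3. For Notch3 the adjusted p was 0.163 in the fit of all 72 libraries. The ligand Dll1 (9.22 to 9.46 against 0.251 to 0.417 CPM, log2 fold change 4.79, SE 0.22) and the glycosyltransferase Lfng were higher in 1057, and the receptor Notch1 was lower (2.27 to 2.48 against 8.98 to 17.7 CPM, -2.36, SE 0.30). Of 28 axon guidance genes, 12 were higher and 7 lower, and 7 were higher on the log2(TPM + 1) scale. Semaphorin ligands were called in both directions. The ligands Sema3a (5.41), Sema3c (4.59, from 5.13 to 6.45 CPM in 1064 to 127 to 141 CPM in 1057), Sema3d (2.71) and Sema4b (2.90) were higher. Sema3f (-1.59) and Sema5a (-1.76) were lower, and Sema5a was not called with RC, nor without replicate 2 of 1064 (-0.96) or any 1 library of 1057. The plexin receptors Plxna4 (-7.39), Plxnb1 (-4.68) and Plxnd1 (-2.01, SE 0.078) were lower. Robo1, a Slit receptor, was higher (149 to 153 against 12.9 to 17.9 CPM).

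Nuclear hormone receptors had 5 of 21 higher and 5 lower. Esr1, oestrogen receptor alpha, was present in both lines at 13.7 to 14.9 CPM in 1057 and 6.30 to 7.89 CPM in 1064. Its log2 fold change of 0.98 (SE 0.13, adjusted p = 0.000993) stayed just under the fold threshold in mock and was 1.11 and called with RC. Esr2 had no count. Pgr, the progesterone receptor, was under 1 CPM in all libraries and called higher. Rarb, a retinoic acid receptor, was higher (68.2 to 72.7 against 6.16 to 17.8 CPM), and Pparg gave 6.24 to 7.30 CPM in 1057 and 2 counts in 1064. Nr4a3 (-5.23) and Vdr (-2.84) were lower, with values in 1064 from 21.1 to 162 and 13.8 to 73.9 CPM, and the number called lower went from 5 to 2 without replicate 1 of 1064, where Rara reached -0.79 and Rxra -0.94.

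Interferon-stimulated and antigen presentation genes were lower in 1057 for 12 of 27 tested and higher for Rsad2 alone, with a median of -0.60. The machinery of class I antigen presentation led the list. Psmb8 (ENSMUSG00000024338, chr17:34197721-34201454), an immunoproteasome subunit, gave 0.0279, 0.0855 and 0.0284 CPM in 1057 and 6.71, 3.86 and 5.75 CPM in 1064 (log2 fold change -6.74, SE 0.43, adjusted p = 5.25e-05). Its neighbour Tap2, a peptide transporter subunit, gave 0.652 to 0.884 against 16.5 to 22.8 CPM (-4.68, SE 0.20). Tap1, Psmb9 and the class I gene H2-D1 (33.6 to 37.3 against 128 to 180 CPM, -2.07, SE 0.15) were lower, and H2-D1 shares sequence with other class I genes, so its count is uncertain. Gbp2, an interferon-induced GTPase, was lower in every library but ranged from 18.8 to 142 CPM in 1064. Of 13 cytokine and chemokine genes tested, 4 were higher, among them Cxcl14 (3.66 to 4.19 CPM and no count in 1064) and Csf1 (0.97 without replicate 3 of 1064), and 2 lower, Ccl2 and Cxcl12. The number lower was 4 without replicate 1 of 1064. For Cxcl12 the adjusted p was 0.191 in the fit of all 72 libraries.

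In the list of MYC, cyclins and CDK inhibitors, Ccnd2 (752 to 765 against 1910 to 2580 CPM, log2 fold change -1.58, SE 0.14) and Cdkn2b (71.5 to 80.1 against 204 to 367 CPM, -2.01, SE 0.22) were lower in 1057. Ccne2, cyclin E2, was higher (34.0 to 40.1 against 1.16 to 8.91 CPM, 3.11, SE 0.66). Of 21 tested, 6 were higher and 4 lower, and 3 were higher without any 1 replicate of 1057 or without replicate 3 of 1064. The number lower was 4 with any 1 library left out.

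Of the 25 replication and mitosis genes, 2 (Mcm7 and Tyms) were called higher in 1057 by edgeR and 0 lower, a share under the background, with 3 at an unadjusted p under 0.05 and 3 called by DESeq2, while the median log2 fold change was 0.90. Within 1064 the libraries disagreed. Top2a, topoisomerase II alpha, gave 233, 237 and 265 CPM in 1057 and 206, 53.8 and 35.5 CPM in 1064, and Mcm5, a subunit of the replicative helicase, gave 99.2, 97.4 and 96.1 CPM against 102, 23.4 and 23.4 CPM. Replicate 1 of 1064 thus lay near the level of 1057, and replicates 2 and 3 lay far below it. Without replicate 1 of 1064, 20 of the 25 were called higher, and without any other library 1 was. With the replicate number as a block 9 were called, and in a voom fit with a weight per line, chosen after seeing the data, 16 were. In the RC libraries 5 were called higher. Mki67 varied within 1057 as well, at 75.3 CPM in replicate 1 and 184 and 235 CPM in the others, and Cenpf did so in the same replicate (22.2 against 61.2 and 75.7 CPM).

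**Figure D4:**
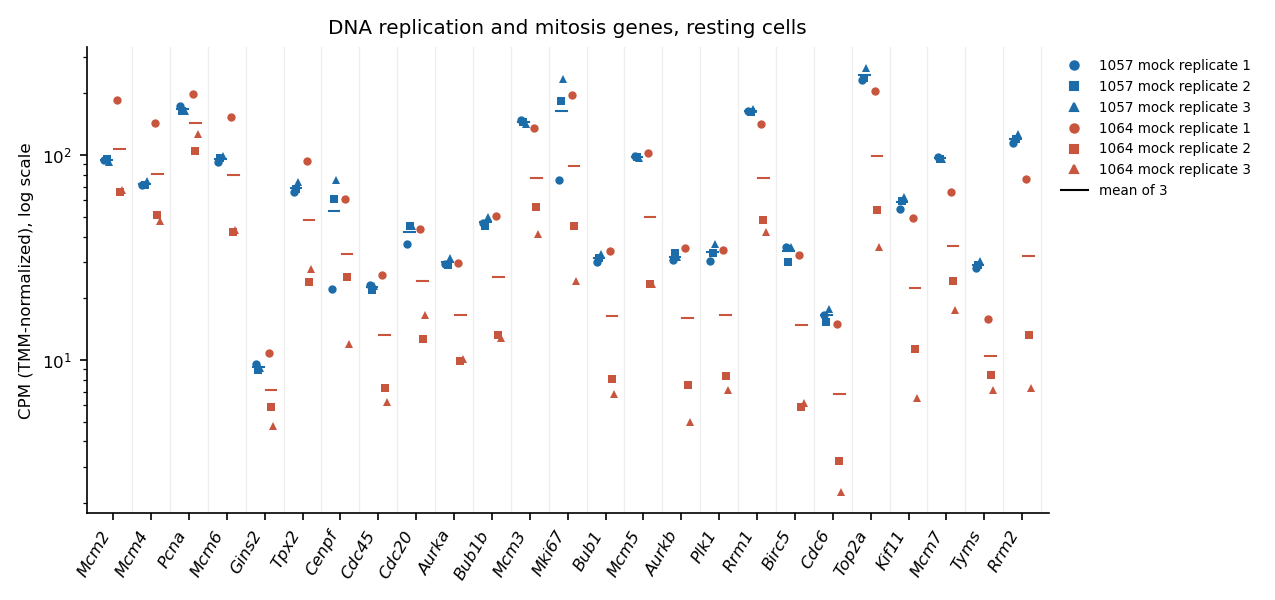
TMM-normalized CPM on a log axis of the 25 replication and mitosis genes in each mock library, ordered by fold change, with 1057 in blue and 1064 in red and marker shapes for the replicates. The red circles (replicate 1 of 1064) lie at or near the blue points, while the red squares and triangles lie below them, as for Top2a with 206, 53.8 and 35.5 CPM.

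The protein-coding genes with the largest fold changes of at least 10 CPM in the higher line included several at 0 counts in the other line. In 1057 they were led by Tfap2b, Nefl (neurofilament light chain, at least 2040-fold higher), Stxbp6 (at least 1440-fold), the neuronal motor gene Kif5c (at least 1340-fold) and Btg3 (at least 798-fold). The keratin gene Krt23 had 855, 820 and 856 CPM in 1057 and 10 counts in all in 1064. In 1064 they were led by Fbln2, Pycard, the adaptor of inflammasomes (no count in 1057 and 7.27 to 14.7 CPM in 1064), As3mt, the arsenic methyltransferase (26.3 to 34.9 CPM against 1 count), and Trim63, a ubiquitin ligase (24.5 to 47.9 CPM against 2 counts). Gnao1, a G protein alpha subunit, gave 30.4 to 46.1 CPM in 1064 and 3 counts in 1057. All 30 genes were called the same way with RC, beside 88.8% of all genes called in mock. They were picked for the largest fold changes between these same lines, so this adds no support.

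The line difference also varied by chromosome. Over the 11627 autosomal genes with a mean of at least 1 CPM the median log2 fold change was 0.01, but medians of single autosomes ran from -0.48 on chromosome 16 and -0.39 on chromosome 6 to 0.47 on chromosomes 13 and 18, 0.45 on chromosome 8 and 0.44 on chromosome 5. Of the 19 autosomes, 7 had a median above 0.2 and 5 a median below -0.2. The medians moved little over the 9 possible pairs of a 1057 and a 1064 library, from -0.49 to -0.41 on chromosome 16 and from 0.44 to 0.49 on chromosome 18, and were -0.48 and 0.44 with RC. The shift was spread along the chromosomes. On chromosome 5 all 8 windows of 20 Mb had a median of the same sign, from 0.36 to 0.69, and on chromosome 6 all 8 did, from -0.48 to -0.26. Of the genes with a mean of at least 1 CPM, those called lower made up 20.8% on chromosome 6 and 6.04% on chromosome 5. These were the highest and lowest shares of the 19 autosomes. The background share given above is over all genes tested, a wider set. The number of copies of each chromosome was not measured in these files.

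**Figure D5:**
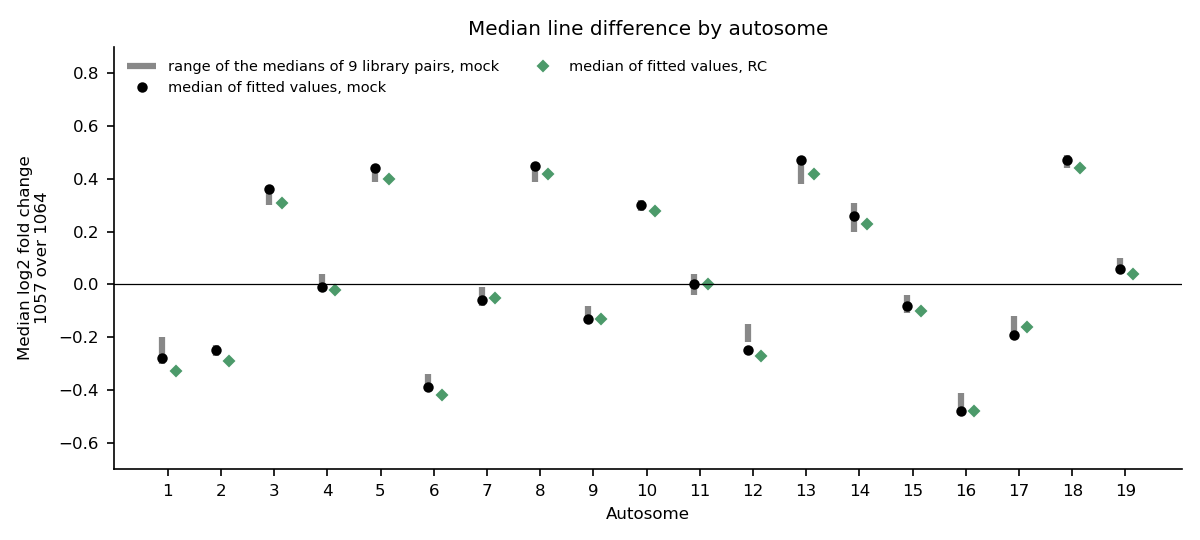
Median log2 fold change of 1057 over 1064 for the genes of each autosome with a mean of at least 1 CPM. Black points are medians of the fitted mock values, grey bars the range of medians over the 9 pairs of mock libraries, and green diamonds medians of the fitted RC values. Chromosomes 3, 5, 8, 10, 13, 14 and 18 lie above 0.2 and chromosomes 1, 2, 6, 12 and 16 below -0.2, in mock and with RC.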

How the data were processed

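RNA was sequenced from polyA-selected, stranded paired-end libraries. Per the labels and methods, reads were aligned with STAR to mm10 (GRCm38.p5), and FastQC 0.11.5 is named in the submitters' processing notes. The strand setting of the counting is not given in the sources used here. The authors deposited raw counts per gene, used for all tests, and TPM values, whose 1057 columns are written with a decimal comma that was read as a point. The tables list genes in different orders and were joined by gene identifier, and 0 value columns lacked a sample. Positions come from GENCODE M21, which matched 99.6% of the genes.

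Groups came from the labels. Counts were filtered (filterByExpr), TMM-normalized and fitted in edgeR 4.0.16 (R 4.3.3; glmQLFit, glmQLFTest) with 3 libraries a line, Benjamini-Hochberg adjusted over the whole table. The SE of a log2 fold change is its size over the root of its F statistic. Thresholds were adjusted p 0.05 and absolute log2 fold change 1. The floor was 3 counts over a group, and counting intervals are exact and cover counting error only. X, Y and mitochondrial genes were left out of counts and names. Replicates sharing a number were not treated as paired. The steps were tested on simulated counts with fewer changed genes than were called here and no change near the fold threshold. Smaller differences were thus not covered by that test. The comparison, members and lists were chosen with earlier results of these data known.

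Names were taken from the genotype genes, members of the lineage, pigment, state, neural crest, invasive, cadherin and EMT lists, from each other list up to 6 called members a direction with the largest fold changes and the 3 of highest level, and the 15 protein-coding genes of largest fold change in each direction with at least 10 CPM. Some other members (among them Mertk, Erbb2, Insr, Gna11, Notch1 and Rara) were named after their values were seen. Alternatives were DESeq2 1.42.0, RLE normalization, no low-count filter, adjusted p alone, glmTreat against a fold of 2, fits of 24 or 72 libraries, autosomal genes only, the replicate block, each library left out, and limma 3.58.1 on log2(TPM + 1) and log2(TPM + 0.1). A voom fit with a weight per line was chosen after seeing the data. 1 item is not reported here.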

Additional observations from a re-analysis of the deposited data

How the results depend on the processing

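In mock, DESeq2 called 3518 genes, RLE normalization 3500, the fits of 24 and 72 libraries 4083 and 4265, no filter 4258, log2(TPM + 1) 2568 and voom 3461, against 3489. Adjusted p alone called 7415 genes (3723 higher and 3692 lower in 1057) and glmTreat 2264 (1034 and 1230). With RC these were 8117 (4015 and 4102) and 2334 (1086 and 1248), against 3640. Leaving out 1 library gave 3348 to 3840 calls in mock (1507 to 1875 higher, 1841 to 2005 lower) and 3484 to 3935 with RC (1589 to 1922 higher, 1895 to 2025 lower). Of 260 called genes named or listed, 173 kept their call in all 18 alternatives, 188 when glmTreat is set aside, and 0 changed direction. Adjusted p alone cannot remove a call, and every alternative reuses all or most of the same libraries.

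Same-numbered replicates of the lines did not deviate together (r = -0.112, 0.0295 and -0.0935 in mock and 0.0147, -0.0227 and 0.00573 with RC). This check cannot show whether they shared a day or a preparation. The replicate block called 3446 genes in mock and 3643 with RC. Depth limits genes near 3 counts, from 0.083 to 0.146 CPM in a mock library. The larger spread of 1064 limits moderate differences.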

Other observations

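Genes of position and detoxification, chosen after their values were seen and given as values only, also differed. Hox genes, which keep a record of body position, differed in both directions, also within the Hoxa cluster. Hoxa11 gave 5.38 to 6.10 CPM in 1057 and Hoxb9 15.9 to 16.7 CPM, against no count of Hoxa11 and 0.0758 to 0.293 CPM of Hoxb9 in 1064. Hoxb6 and Hoxb8 had no count in 1064 and about 1 CPM in 1057. Hoxa5 and Hoxa7, in contrast, gave 0.948 to 1.27 and 0.723 to 1.61 CPM in 1064 and at most 0.228 CPM in 1057. Zic2 and Zic5, neighbouring zinc finger genes of the neural crest on chromosome 14, gave 6.30 to 6.81 and 21 to 21.9 CPM in 1057 and no count in 1064.

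Glutathione S-transferase genes, which conjugate toxic compounds, differed in both directions within a cluster on chromosome 3. Gstm1 was higher in 1057 (411 to 458 against 123 to 213 CPM, log2 fold change 1.28, SE 0.21) and Gstm2, Gstm4 and Gstm6 were lower (-1.67, -5.06 and -4.26). Gstt2, Gstt3 and Gstk1 were also lower, at under 1 CPM in 1057 and 4.30 to 11.1 CPM in 1064. Members of this family share sequence, so reads may be divided between them with error.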
